A study of Mus musculus with 6 samples.

Results

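Ion channels and transporters of the colonic epithelium were examined in colorectal tumors with and without epithelial *Trp53*. The set held 10 genes, named by symbol and matched to the gene names of the deposited table, and each was found once among its 54167 genes. RNA-seq had been carried out on 6 tumors of C57BL/6J background, 3 from *Trp53fl/fl* mice and 3 from *VP* mice. *Trp53fl/fl* mice carry *Trp53* alleles flanked by loxP sites, which stay intact without Cre, and the *VP* mice carry the same alleles together with *Pvillin-Cre*, so that the villin promoter limits the deletion to intestinal epithelial cells. All mice were male, received 10 mg/kg azoxymethane (AOM), a carcinogen, at 8 weeks of age, and then drank 2.5% dextran sulfate sodium (DSS), an agent that causes colitis, in rounds of 7 days, with tumors collected on day 98. The labels do not give the segment of the colon from which a tumor came, and no untreated colon was analysed here, so every comparison is between tumors.

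Values are TPM, transcript abundances scaled to transcript length and to a fixed total per tumor, which can thus be compared between genes. Read numbers are lost in this unit, and the depth is unknown. Fold changes are differences of log2(TPM + 1), *VP* minus *Trp53fl/fl*, and were tested with limma over the 15117 genes that reached 1 TPM in 3 or more tumors, and p-values were adjusted over all of them after Benjamini and Hochberg. SE stands for the standard error of a log2 fold change. All 10 transporter genes passed this filter. As a check of the labels, *Trp53* was at 99.30 to 147.45 TPM in the *Trp53fl/fl* tumors and at 27.83 to 38.45 TPM in the *VP* tumors. The defining epithelial markers were abundant in all 6 tumors, with *Epcam* between 1159 and 1526 TPM. The median log2 fold change of the 10 genes, 0.35 over all tumors, was 0.47 without *VP* replicate 3 and 0.15 without *VP* replicate 1.

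The colonic surface absorbs sodium, chloride, water and short-chain fatty acids, while the crypts secrete chloride and bicarbonate. Sodium enters through the epithelial sodium channel (ENaC), whose α, β and γ subunits are encoded by *Scnn1a*, *Scnn1b* and *Scnn1g* and whose activity in the distal colon is raised by aldosterone, and through the sodium/proton exchanger NHE3 (*Slc9a3*). Butyrate and other monocarboxylates enter with sodium through SMCT1 (*Slc5a8*). In secretion, the cotransporter NKCC1 (*Slc12a2*) loads the cell with chloride from the blood side, CFTR (*Cftr*) releases it to the lumen, and the potassium channel KCNQ1 (*Kcnq1*) keeps the driving force by letting potassium recycle. *Best2* encodes bestrophin-2, an anion channel known from colonic goblet cells, and *Atp12a* encodes the catalytic subunit of the colonic proton/potassium pump, which takes up potassium in the distal colon.

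After adjustment over the 15117 genes, limma called no transporter gene, and the smallest adjusted p was 0.299, for *Slc5a8*. Of all 15117 genes, 25 (0.165%) passed it. At an unadjusted p under 0.05, *Slc5a8* and *Best2* were higher in *VP* tumors and none of the 10 was lower, where 4.51% of all genes tested were higher, 8% lower and 12.5% differed in either direction. Of the 10 genes, 8 had a positive and 2 a negative log2 fold change, where 39.2% of all genes tested had a positive one. The median was 0.35 for these 10 and -0.07 for all genes tested. Centring the tumors on 12 epithelial markers moved these counts to 6 positive and 4 negative and both medians to 0.17 and -0.25. These contrasts are descriptions, since the 10 genes were chosen with earlier results of these data known. In bulk tissue, fewer cells of a type and less RNA per cell cannot be told apart. The labels number the tumors as replicates without stating that each came from its own mouse, so the p-values measure the spread between these samples. With 3 tumors against 3 an exact permutation test cannot go below 0.1, while limma borrows the spread across genes.

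The levels spanned a wide range, in an order that the tumors shared in part. *Slc12a2* was the most abundant, with a mean over the 6 tumors of 110.8 TPM, above 91.2% of the genes tested, and its lowest tumor (88.28 TPM) lay above the highest tumor of every other gene of the set. *Slc9a3* (56.7 TPM) and *Kcnq1* (49.8 TPM) followed, and their ranges overlapped. *Atp12a* (27.0 TPM), *Scnn1a* (25.2 TPM), *Best2* (18.9 TPM) and *Slc5a8* (15.8 TPM) formed the middle of the order, each with a range that overlapped the next. *Cftr* (8.05 TPM) and *Scnn1b* (7.33 TPM) overlapped as well, and *Scnn1g* came last at 3.11 TPM, above 16.3% of the genes tested and below *Scnn1b* in each of the 6 tumors.

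**Figure D1:**
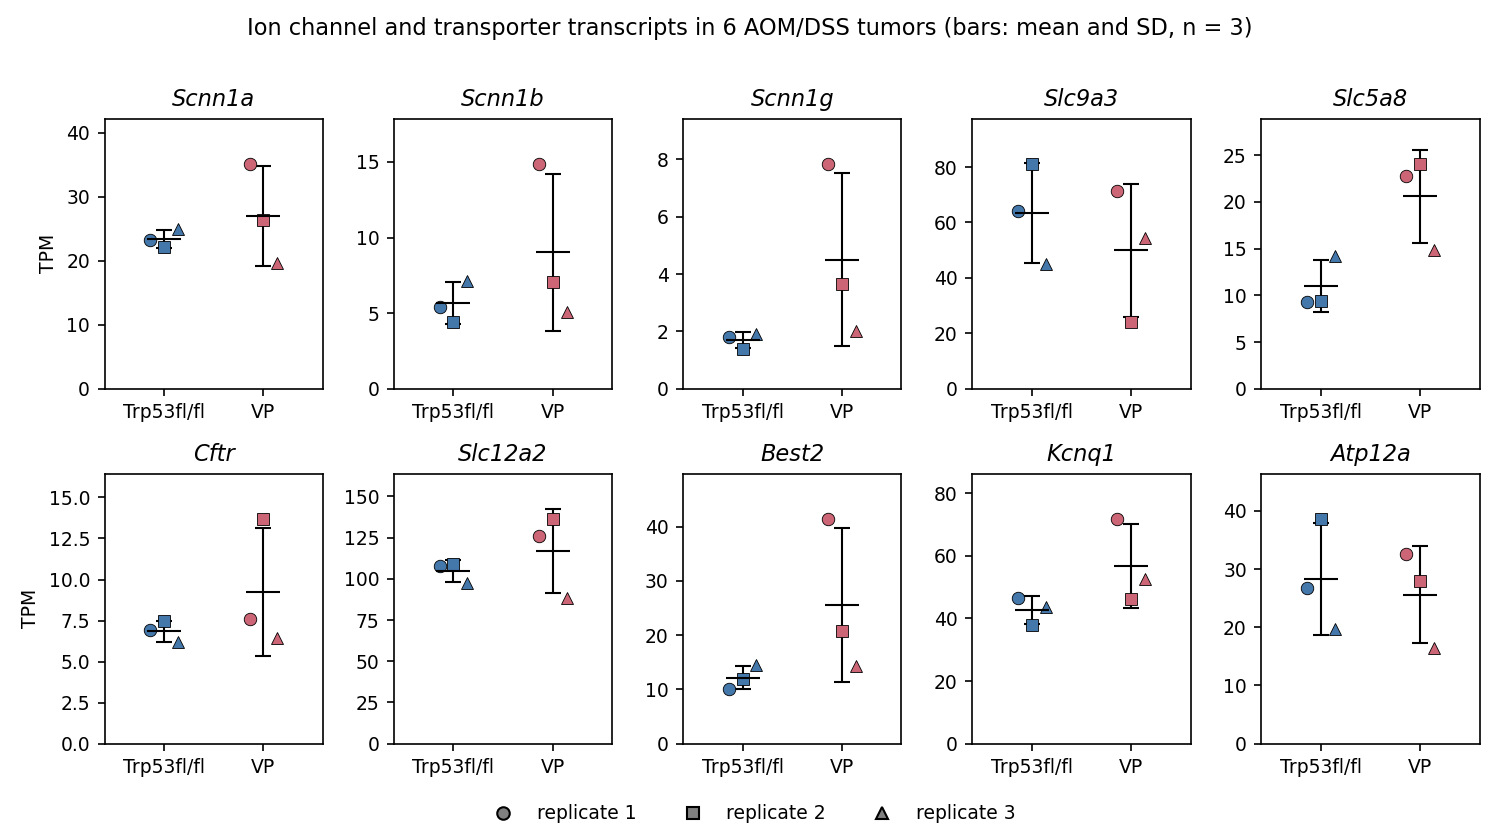
TPM (vertical axes, each starting at 0) of the 10 genes in the 3 *Trp53fl/fl* tumors (blue) and the 3 *VP* tumors (red), with the mean and SD of each genotype as bars and the marker shape giving the replicate number. *Slc5a8* and *Scnn1g* separate the genotypes, *VP* replicate 1 stands far above the other tumors for *Scnn1g*, *Scnn1b* and *Best2*, and *VP* replicate 2 is lowest for *Slc9a3* at 23.97 TPM.

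Among the ENaC subunits, *Scnn1g* showed the largest difference. *Scnn1g* (ENSMUSG00000000216, chromosome 7 from 121734479 to 121768475, plus strand, 13 exons in GENCODE M21 on GRCm38) was at 1.82, 1.40 and 1.91 TPM in the *Trp53fl/fl* tumors and, in the *VP* tumors, at 7.85, 3.66 and 2.0 TPM. Every *VP* tumor lay above every *Trp53fl/fl* tumor, with *VP* replicate 3 only just above. Its log2 fold change was 0.88 (SE 0.38, 95% interval -0.0053 to 1.77, limma adjusted p = 0.400). Without *VP* replicate 1 it was 0.47, and without *VP* replicate 3 it was 1.25.

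*Scnn1b* (ENSMUSG00000030873, chromosome 7 from 121865038 to 121918514, plus strand, 13 exons) lies 96.6 kb downstream of *Scnn1g*. It was at 5.39, 4.42 and 7.15 TPM in the *Trp53fl/fl* tumors and, in the *VP* tumors, at 14.88, 7.08 and 5.08 TPM. *VP* replicate 1 was high, and the other two *VP* tumors fell within the range of the *Trp53fl/fl* tumors. The log2 fold change of 0.49 (SE 0.36, limma adjusted p = 0.580) was 0.096 without *VP* replicate 1 and 0.79 without *VP* replicate 3. The gene overlaps *Cog7* on the opposite strand, and the library protocol is not stated to keep strand, so reads of the shared stretch cannot be assigned. *Cog7* ranged from 18.16 to 22.26 TPM.

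*Scnn1a* (ENSMUSG00000030340, chromosome 6 from 125320659 to 125344943, plus strand, 12 exons) was the most abundant subunit in all 6 tumors. It was at 23.29, 22.09 and 24.91 TPM in the *Trp53fl/fl* tumors and, in the *VP* tumors, at 35.13, 26.38 and 19.58 TPM. The *VP* tumors lay on both sides of the narrow *Trp53fl/fl* range, and the log2 fold change was 0.16 (SE 0.20, 95% interval -0.32 to 0.64, limma adjusted p = 0.754), which turned to -0.040 without *VP* replicate 1 and to -0.018 with centring on the epithelial markers.

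Ratios within a tumor do not depend on how that tumor was scaled. *Scnn1g* reached 0.0781, 0.0634 and 0.0767 of the *Scnn1a* TPM in the *Trp53fl/fl* tumors and 0.224, 0.139 and 0.102 in the *VP* tumors. The ratio was thus higher in each *VP* tumor, *VP* replicate 3 included, and the mean log2 ratio differed by 1.02. The ratio of *Scnn1b* to *Scnn1g* was 2.96, 3.16 and 3.74 in the *Trp53fl/fl* tumors and 1.9, 1.93 and 2.54 in the *VP* tumors, lower in each *VP* tumor. That of *Scnn1b* to *Scnn1a* overlapped, at 0.200 to 0.287 against 0.259 to 0.424. These ratios are given as descriptions without a test, and *Scnn1g* is close to the filter limit in the *Trp53fl/fl* tumors, where small absolute changes weigh most.

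**Figure D2:**
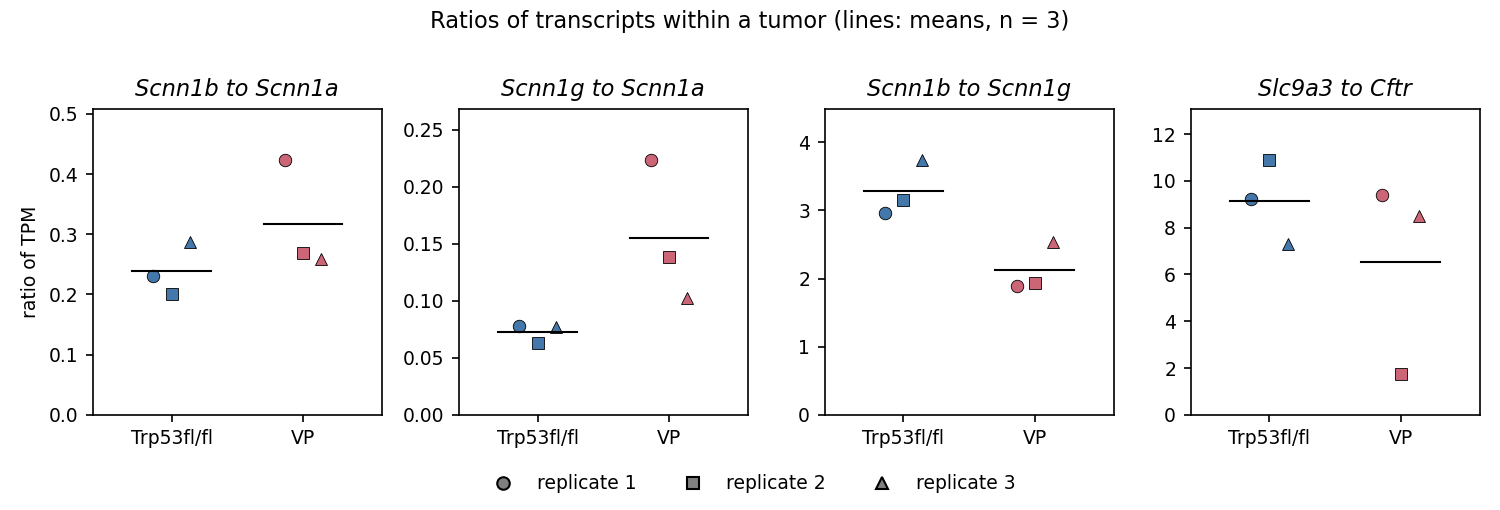
Ratios of TPM within each tumor (vertical axes, each starting at 0) for pairs of ENaC subunits and for *Slc9a3* to *Cftr*, with *Trp53fl/fl* tumors in blue, *VP* tumors in red, marker shapes giving the replicate number and lines at the means. The ratio of *Scnn1g* to *Scnn1a* is higher, and that of *Scnn1b* to *Scnn1g* lower, in each *VP* tumor than in every *Trp53fl/fl* tumor, while *Slc9a3* to *Cftr* is low in *VP* replicate 2 (1.75).

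The stretches before the start of both neighbouring ENaC genes and of *Slc5a8* are shown because *Scnn1g* and *Slc5a8* separated the genotypes and *Scnn1b* is the neighbour of *Scnn1g* on the same strand. RefSeq windows (GRCm38.p6) were found for 5 of the 10 genes, namely *Cftr*, *Scnn1b*, *Scnn1g*, *Slc9a3* and *Slc5a8*. Each line gives the 250 bases before the start, 5′ to 3′ on the plus strand, and capitals mark the GC box GGGCGG on either strand.
Scnn1g, chr7:121734229-121734478: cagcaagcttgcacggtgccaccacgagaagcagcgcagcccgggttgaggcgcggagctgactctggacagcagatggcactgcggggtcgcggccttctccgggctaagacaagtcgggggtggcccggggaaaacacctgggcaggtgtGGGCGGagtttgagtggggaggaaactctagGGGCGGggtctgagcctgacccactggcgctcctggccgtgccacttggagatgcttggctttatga
Scnn1b, chr7:121864788-121865037: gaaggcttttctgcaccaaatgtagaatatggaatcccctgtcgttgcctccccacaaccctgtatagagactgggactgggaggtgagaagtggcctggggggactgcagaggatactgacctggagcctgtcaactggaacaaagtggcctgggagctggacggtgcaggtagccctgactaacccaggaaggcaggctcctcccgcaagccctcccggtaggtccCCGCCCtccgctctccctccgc
Slc5a8, chr10:88885742-88885991: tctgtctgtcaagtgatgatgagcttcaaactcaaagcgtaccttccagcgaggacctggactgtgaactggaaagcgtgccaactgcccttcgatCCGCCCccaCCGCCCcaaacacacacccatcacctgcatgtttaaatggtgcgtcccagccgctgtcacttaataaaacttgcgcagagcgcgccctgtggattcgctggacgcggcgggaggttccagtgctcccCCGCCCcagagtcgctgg
Over windows of 300 bases, which take in 50 bases after the start, *Scnn1g* held 2 GC boxes, *Scnn1b* 1 and *Slc5a8* 3, and all 5 windows held at least 1, where 35.7% of the 32851 windows of the table did. The windows of *Scnn1g*, *Scnn1b* and *Slc5a8* held 18, 10 and 20 CpG dinucleotides, against a median of 7 per window. The half-site TGTTCT of the glucocorticoid and mineralocorticoid receptors was found on neither strand of the 5 windows, and 19% of all windows held it. The TATA box TATAAA was also not found in them, and 13.6% of all windows held it. A match, or its absence, describes only these letters in this window.

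*Slc9a3* (ENSMUSG00000036123, chromosome 13 from 74121457 to 74169442, plus strand, 16 exons) had the most negative log2 fold change of the set. It was at 64.03, 81.21 and 45.01 TPM in the *Trp53fl/fl* tumors and, in the *VP* tumors, at 71.49, 23.97 and 54.47 TPM. Only *VP* replicate 2 lay below the *Trp53fl/fl* range, and the log2 fold change of -0.43 (SE 0.40, 95% interval -1.38 to 0.51, limma adjusted p = 0.662) was 0.017 without that tumor. *VP* replicate 2 was at the same time the tumor with the highest *Cftr* and *Slc12a2*, so that its ratio of *Slc9a3* to *Cftr* was 1.75, against 7.30 to 10.9 in the other 5 tumors. The ratio of *Slc9a3* to *Slc9a2*, which encodes the exchanger NHE2, was likewise lowest in *VP* replicate 2, at 1.53 against 4.35 to 7.70 in the others.

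*Slc5a8* (ENSMUSG00000020062, chromosome 10 from 88885992 to 88929515, plus strand, 15 exons) had the smallest p of the set. It was at 9.33, 9.39 and 14.22 TPM in the *Trp53fl/fl* tumors and, in the *VP* tumors, at 22.83, 24.10 and 14.87 TPM. The genotypes did not overlap, although *Trp53fl/fl* replicate 3 and *VP* replicate 3 nearly met. The log2 fold change was 0.85 (SE 0.23, 95% interval 0.29 to 1.40, limma adjusted p = 0.299). It lay between 0.72 and 1.05 when single tumors were omitted, and over 15 alternatives the limma adjusted p lay between 0.0469, with array quality weights, and 0.648. *Slc5a12*, which encodes the related carrier SMCT2, was listed at 0 in all 6 tumors.

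Among the genes of chloride secretion, *Cftr* (ENSMUSG00000041301, chromosome 6 from 18170687 to 18322768, plus strand, 27 exons) was at 6.93, 7.45 and 6.17 TPM in the *Trp53fl/fl* tumors. In the *VP* tumors it was at 7.61, 13.71 and 6.42 TPM, so that *VP* replicate 2 alone stood apart. Its log2 fold change of 0.32 (SE 0.26, limma adjusted p = 0.616) was 0.029 without that tumor, 0.52 without *VP* replicate 3 and 0.14 with centring on the epithelial markers.

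*Slc12a2* (ENSMUSG00000024597, chromosome 18 from 57878678 to 57946821, plus strand, 27 exons) was at 107.55, 109.18 and 97.25 TPM in the *Trp53fl/fl* tumors and, in the *VP* tumors, at 126.24, 136.54 and 88.28 TPM. The *VP* tumors lay on both sides of the *Trp53fl/fl* range. The difference of 0.14 (SE 0.17, 95% interval -0.27 to 0.54, limma adjusted p = 0.754) lay within 1 SE of 0 and changed sign, to -0.043, with centring on the epithelial markers. The TPM of *Cftr* were 0.0644, 0.0682 and 0.0634 of those of *Slc12a2* in the *Trp53fl/fl* tumors and 0.0603, 0.10 and 0.0727 in the *VP* tumors.

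*Kcnq1* (ENSMUSG00000009545, chromosome 7 from 143106362 to 143427042, plus strand, 16 exons) was at 46.58, 37.86 and 43.77 TPM in the *Trp53fl/fl* tumors and, in the *VP* tumors, at 71.91, 46.07 and 52.73 TPM. The genotypes overlapped by 1 tumor, *VP* replicate 2, and all 3 *VP* tumors were above the *Trp53fl/fl* mean. Its log2 fold change was 0.39 (SE 0.18, 95% interval -0.036 to 0.81, limma adjusted p = 0.424), and it was 0.21 without *VP* replicate 1 and 0.20 with centring on the epithelial markers. *Kcne3*, whose product is the partner subunit of KCNQ1 in the colon, was more abundant, at 302.23, 167.59 and 228.09 TPM in the *Trp53fl/fl* tumors and, in the *VP* tumors, at 239.47, 237.18 and 258.64 TPM, and differed by 0.11 on the log2 scale (limma adjusted p = 0.828), a value that changed sign with centring on the epithelial markers, with array quality weights and without *Trp53fl/fl* replicate 2. The antisense transcript *Kcnq1ot1*, which lies within *Kcnq1*, was at 0.03 to 0.10 TPM.

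*Best2* (ENSMUSG00000052819, chromosome 8 from 85007202 to 85014531, minus strand, 10 exons) had the largest log2 fold change of the set, 0.89 (SE 0.35, 95% interval 0.062 to 1.73, limma adjusted p = 0.378). This rank depends on the pseudocount, since with 0.1 in place of 1 *Scnn1g* was at 1.15 and *Best2* at 0.94. *Best2* was at 10.17, 11.89 and 14.42 TPM in the *Trp53fl/fl* tumors and, in the *VP* tumors, at 41.50, 20.75 and 14.41 TPM. *VP* replicate 3 fell just short of the highest *Trp53fl/fl* tumor, and this was the only overlap. Without *VP* replicate 1 the log2 fold change was 0.49, and without *VP* replicate 3 it was 1.22. The goblet cell markers went both ways. Of 10, 4 were higher and 6 lower in *VP* tumors, with log2 fold changes of -2.62 for *Ang4* and -1.54 for *Clca1*, both lower in each *VP* tumor, and 0.80 for *Zg16* (limma adjusted p = 0.289, 0.269 and 0.492), and a summed level of 9396 to 10455 TPM in *Trp53fl/fl* and 8868 to 12377 TPM in *VP* tumors. Their part in the *Best2* values was not tested.

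*Atp12a* (ENSMUSG00000022229, chromosome 14 from 56365068 to 56388550, plus strand, 23 exons) was at 26.68, 38.69 and 19.64 TPM in the *Trp53fl/fl* tumors and, in the *VP* tumors, at 32.58, 27.91 and 16.44 TPM. The lowest tumor of each genotype was its replicate 3, and the genotypes overlapped widely, with a log2 fold change of -0.14 (SE 0.31, 95% interval -0.87 to 0.59, limma adjusted p = 0.864) that was 0.10 without *Trp53fl/fl* replicate 2 and 0.14 without *VP* replicate 3.

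**Figure D3:**
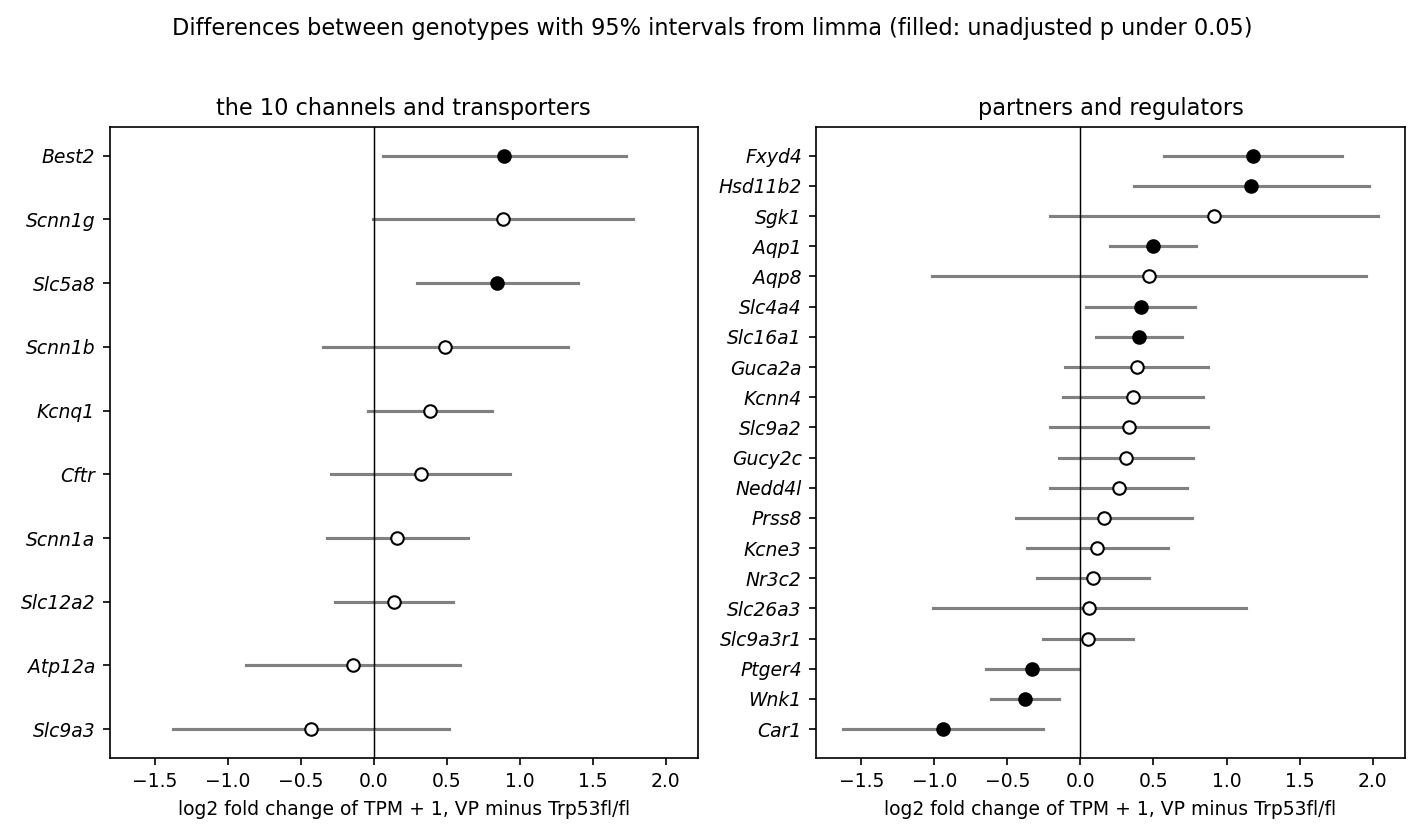
Log2 fold changes of TPM + 1 (horizontal axis, *VP* minus *Trp53fl/fl*) with 95% intervals from limma for the 10 channels and transporters (left) and for partners and regulators (right), filled where the unadjusted p was under 0.05. *Slc5a8* and *Best2* are the filled points on the left, and no gene shown passed the adjustment over all 15117 genes.

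The 3 *VP* tumors did not differ from the *Trp53fl/fl* tumors in the same way. Of the 10 genes, *VP* replicate 1 lay above the whole *Trp53fl/fl* range for 8 and below it for none, where it lay above for 21.4% and below for 34.9% of all genes tested. *VP* replicate 2 lay above for 6 and below for 1, beside 23.6% and 34.2% of all genes. *VP* replicate 3 lay above for 3, below for 3 and within the range for 4, beside 19.6%, 34.5% and 45.9% of all genes. *VP* replicate 1 was the highest of the 6 tumors for 5 of the genes, *Scnn1a*, *Scnn1b*, *Scnn1g*, *Kcnq1* and *Best2*, and *VP* replicate 2 for 3, *Cftr*, *Slc12a2* and *Slc5a8*. *Trp53fl/fl* replicate 2 was highest for *Slc9a3* and *Atp12a*. Among all genes tested, *VP* replicate 1 was highest for 13.9%, *VP* replicate 2 for 15.1% and *Trp53fl/fl* replicate 2 for 27.1%. Counted over genotypes, every *VP* tumor was above every *Trp53fl/fl* tumor for 2 of the 10 genes and below for none, where 6.03% of all genes tested were above and 13.3% below. Without *VP* replicate 3, 6 of the 10 genes were above, where 11.7% of all genes tested were, and 4 were higher at an unadjusted limma p under 0.05, where 5.54% of all genes were. With centring on the epithelial markers none of the 10 was above and only *Slc5a8* was higher at that p, where 1.96% and 1.84% of all genes were.

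The lists of other genes of salt and water transport held 78 genes, of which 67 passed the filter. After adjustment limma called none of them, with 5 higher and 3 lower in *VP* tumors at an unadjusted p under 0.05, 7.46% and 11.9% for higher and for either direction against 4.51% and 12.5% of all genes. The share for either direction is thus near the background, while the directions differ from it, with 8% of all genes lower. Of the 67 genes, 10 were above in every *VP* tumor and 4 below, where 6.03% and 13.3% of all genes tested were. Their median log2 fold change was 0.12, with 45 genes higher and 22 lower. Of all genes tested, 39.2% were higher, which is also the background for the counts of each list below.

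Among 9 tested ENaC regulators, 8 were higher and 1 lower in *VP* tumors, 1 of them at an unadjusted p under 0.05. *Hsd11b2* encodes the enzyme that inactivates glucocorticoids and so keeps the mineralocorticoid receptor for aldosterone. It was at 39.82, 40.68 and 57.66 TPM in the *Trp53fl/fl* tumors and, in the *VP* tumors, at 161.45, 112.04 and 60.97 TPM, without overlap, and its log2 fold change was 1.17 (SE 0.34, limma adjusted p = 0.311). *Sgk1*, a kinase induced by that receptor which acts on ENaC through the ubiquitin ligase NEDD4L, was at 43.64, 40.02 and 34.62 TPM and at 177.35, 50.73 and 46.36 TPM. No tumors overlapped, but *VP* replicate 1 carried most of the log2 fold change of 0.91 (SE 0.48, limma adjusted p = 0.463), which was 0.30 without it. The receptor gene *Nr3c2* itself differed by 0.086 on the log2 scale (limma adjusted p = 0.837), which changed sign with centring on the epithelial markers and without *Trp53fl/fl* replicate 1. *Nedd4l* (0.26, adjusted p = 0.593) and *Prss8*, a protease that activates ENaC (0.16, adjusted p = 0.803), overlapped between the genotypes, and *Prss8* changed sign with the same centring.

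Of 12 genes of the sodium pump and of sodium/proton exchange, 8 were higher and 4 lower, and 1 had an unadjusted p under 0.05. This was *Fxyd4*, whose product CHIF regulates the sodium pump and is known as a corticosteroid-induced protein of the distal colon. *Fxyd4* was at 36.23, 25.22 and 41.54 TPM in the *Trp53fl/fl* tumors and, in the *VP* tumors, at 108.12, 71.98 and 60.02 TPM, all above. Its log2 fold change of 1.18 (SE 0.26, limma adjusted p = 0.234) lay between 0.95 and 1.37 when single tumors were omitted. *Slc9a2* (0.33, adjusted p = 0.561) and *Slc9a3r1*, the NHERF1 scaffold of NHE3 and CFTR (0.051, adjusted p = 0.885), overlapped too, and the sign of the latter changed with centring on the epithelial markers and without *VP* replicate 2.

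The tumor with the highest level varied among the 9 ENaC regulators. It was *VP* replicate 1 for 4 of them, *Hsd11b2* and *Sgk1* included, *VP* replicate 3 for 2 and each of the *Trp53fl/fl* tumors for 1, where *VP* replicate 1 was highest for 13.9% of all genes tested.

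Of 14 genes of chloride and bicarbonate transport, 7 were higher and 7 lower. *Car1*, a cytosolic carbonic anhydrase of colonocytes, was lower in each *VP* tumor, at 153.83, 283.58 and 121.70 TPM against 95.83, 95.93 and 80.66 TPM, a log2 fold change of -0.94 (SE 0.29, limma adjusted p = 0.317) that was -0.59 without *Trp53fl/fl* replicate 2. *Slc4a4*, a sodium bicarbonate cotransporter named here after its values were seen, was higher in each *VP* tumor, at 4.18 ± 0.426 TPM against 5.90 ± 0.770 TPM (SD, n = 3 in both genotypes), and differed by 0.41 on the log2 scale (limma adjusted p = 0.370). *Slc26a3*, the chloride/bicarbonate exchanger that works beside NHE3, was at 10.62, 4.86 and 15 TPM and at 10.55, 15.71 and 5.41 TPM. Its spread within each genotype far exceeded its log2 fold change of 0.061 (SE 0.45, 95% interval -1.01 to 1.13, limma adjusted p = 0.966), whose sign changed under 4 alternatives.

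The 7 tested genes of short-chain fatty acid and monocarboxylate transport were all higher in mean log2 value in *VP* tumors, with a median log2 fold change of 0.28, and 1 had an unadjusted p under 0.05. *Slc16a1*, which encodes the monocarboxylate transporter MCT1, was at 23.94, 21.54 and 24.90 TPM in the *Trp53fl/fl* tumors and, in the *VP* tumors, at 32.71, 33.62 and 27.72 TPM, without overlap (log2 fold change 0.40, SE 0.12, limma adjusted p = 0.317). Among 4 tested water channels, *Aqp1*, which is best known from endothelium, was higher in each *VP* tumor, at 35.20, 36.28 and 35.53 TPM against 58.36, 50.15 and 44.32 TPM (log2 fold change 0.49, limma adjusted p = 0.278). The 6 endothelial markers were all higher in mean log2 value in *VP* tumors, with a median log2 fold change of 0.14 and summed levels of 94.5 to 119 TPM against 117 to 121 TPM, and 1 of them, *Vwf*, did not overlap. Their part in the *Aqp1* values was not tested. *Aqp8*, the colonocyte water channel, varied from 5.08 to 32.49 TPM in the *Trp53fl/fl* and from 9.72 to 27.82 TPM in the *VP* tumors (log2 fold change 0.47, limma adjusted p = 0.769, sign changed without *Trp53fl/fl* replicate 2).

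Of 7 tested potassium channels and carriers, 6 were higher and 1 lower and none had an unadjusted p under 0.05, the smallest adjusted p being that of the calcium-activated channel gene *Kcnn4* (0.490, log2 fold change 0.36). Of 8 tested genes of secretion signalling, 3 were higher and 5 lower. *Ptger4*, a prostaglandin receptor gene, was lower in each *VP* tumor (17.3 ± 1.63 TPM against 13.5 ± 1.43 TPM, SD, n = 3 in both genotypes, log2 fold change -0.33, limma adjusted p = 0.388). *Guca2a*, which encodes guanylin, and *Gucy2c*, which encodes its receptor, had log2 fold changes of 0.39 and 0.31 with overlap (limma adjusted p = 0.474 and 0.521). Of 6 tested genes in the list of the WNK and SPAK kinases, which set the activity of NKCC1, 2 were higher and 4 lower. Among the lower ones, *Cul3* (log2 fold change -0.021) does not encode a kinase. *Wnk1* was at 85.34, 82.95 and 76.79 TPM in the *Trp53fl/fl* tumors and, in the *VP* tumors, at 65.44, 62.76 and 59.30 TPM, lower in each of them (log2 fold change -0.38, SE 0.10, limma adjusted p = 0.278).

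**Figure D4:**
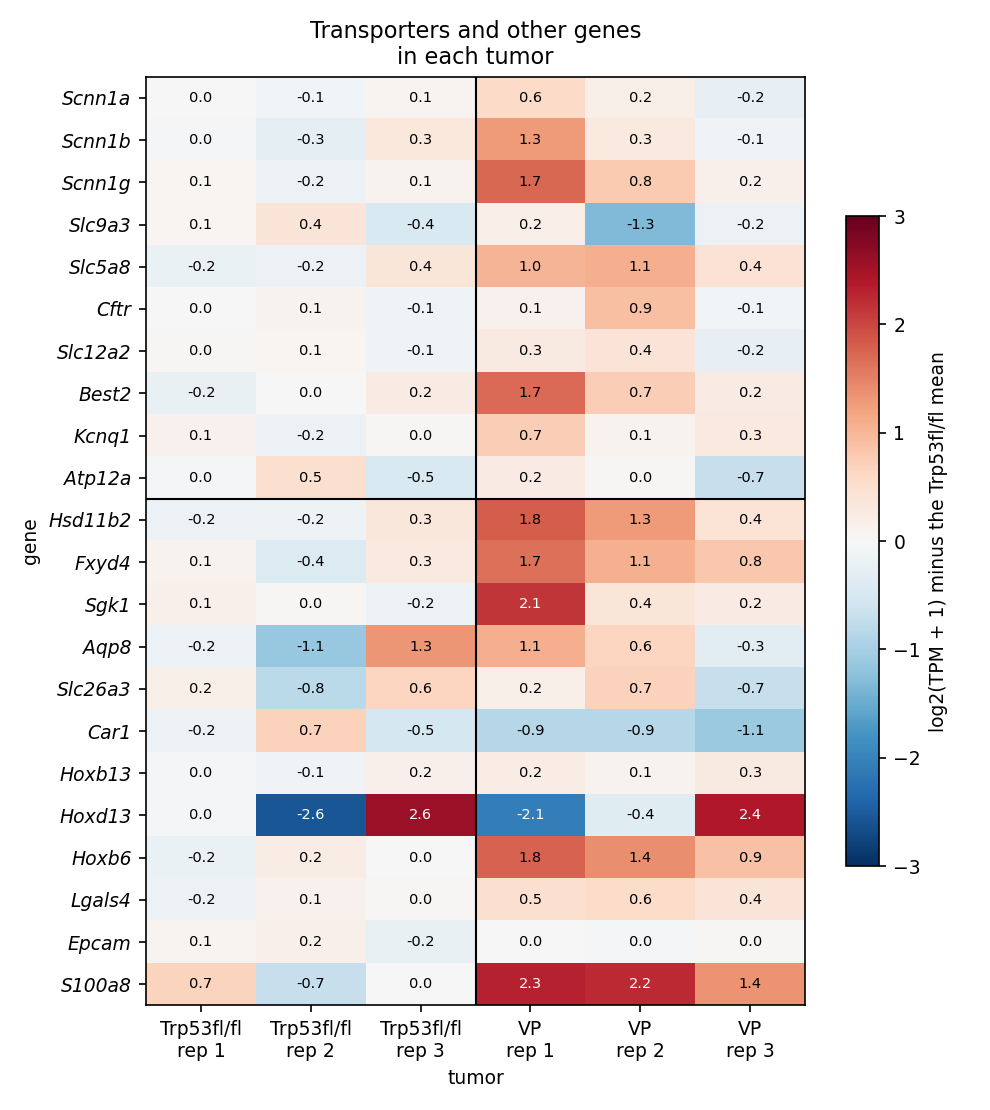
Log2(TPM + 1) minus the mean of the *Trp53fl/fl* tumors (color and printed value) for the 10 channels and transporters (above the line) and for regulators, other transport genes and markers (below it) in each of the 6 tumors. *VP* replicate 1 is high for *Scnn1b*, *Scnn1g*, *Best2*, *Hsd11b2*, *Fxyd4* and *Sgk1*, *VP* replicate 3 is close to the *Trp53fl/fl* tumors for most transporters, and *Hoxd13* is high in replicate 3 of both genotypes.

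Genes with the most similar pattern over the 6 tumors were taken from the genes with a mean of at least 5 TPM, by Pearson's r of log2(TPM + 1), for the 3 members of the widest range. For *Best2* they were *Aebp1*, *Ace* and *Fas*, with r between 0.991 and 0.993. For *Scnn1g* they were *Lrrc32*, *Bmyc* and *Ces2c* (r of 0.991 to 0.993), and for *Slc9a3* they were *Orc5*, *Dcaf6* and *Zc3h14* (r of 0.988 to 0.994). An r above 0.9 was reached by 144, 146 and 91 genes with *Best2*, *Scnn1g* and *Slc9a3*. Within the set, *Scnn1g* and *Best2* were most alike (r = 0.97) and *Cftr* and *Slc9a3* least (r = -0.73), as a description of 6 tumors of 2 genotypes.

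Several marker lists also differed between the tumors, and their part in the transporter values was not tested. The summed TPM of 12 epithelial markers was 10934 to 11420 in the *Trp53fl/fl* tumors and 12420 to 13601 in the *VP* tumors, with 11 of 12 log2 fold changes positive. The markers did not move alike. Only 3, *Krt19* (0.39), *Cldn7* (0.37) and *Lgals4* (0.47), did not overlap, while *Epcam* (0.0028), *Krt18* (0.0036), *Cdh1* (0.024) and *Esrp1* (-0.019) hardly differed. The summed mature colonocyte markers overlapped, at 1425 to 2168 TPM against 1380 to 2092 TPM, of which *Saa1* alone gave 715 to 1263 TPM and 647 to 929 TPM. Of 10 tested, 6 were higher and 4 lower in *VP* tumors. *Cdhr5* (0.47, limma adjusted p = 0.317) was higher in each *VP* tumor. *Muc3* (1.00, limma adjusted p = 0.445) overlapped, and *Krt20* (-0.028) hardly differed. Stem cell and Wnt target markers were lower in *VP* tumors for 7 of 8 genes, with sums of 1051 to 1164 TPM against 728 to 1045 TPM. Neutrophil markers were higher for all 9 genes, with sums of 262 to 604 TPM against 1111 to 1911 TPM, and 8 did not overlap. Only *Ngp* was called (4.37, limma adjusted p = 0.00804), at 0.21 to 0.81 TPM against 18.17 to 48.44 TPM. *Csf3r* overlapped and hardly differed (0.074, limma adjusted p = 0.933). Smooth muscle markers summed to 613 to 976 TPM and 519 to 1584 TPM, highest in *VP* replicate 2.

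Transport in the colon changes along its length, so genes of position were read beside the transporters. *Hoxb13*, a gene of the distal colon, was at 148 to 193 TPM in all 6 tumors. *Hoxd13* was at 9.06, 0.75 and 60.91 TPM in the *Trp53fl/fl* tumors and, in the *VP* tumors, at 1.46, 7.06 and 53.52 TPM, high in replicate 3 of each genotype, which were also the tumors with the lowest *Atp12a* of each genotype. *Hoxa13*, of the same list, did not share this order, at 24.51, 24.05 and 24.31 TPM and at 24.73, 20.16 and 13.41 TPM. *Hoxb6*, from the list for the proximal colon, was at 0.36, 0.83 and 0.56 TPM and at 4.34, 3.11 and 1.9 TPM, higher in each *VP* tumor. *Hoxb7* was at 0.69, 2.22 and 0.79 TPM and at 6.55, 4.74 and 1.82 TPM, with overlap, while *Hoxa9* was lower in each *VP* tumor, at 71.27 to 94.37 TPM against 49.70 to 64.12 TPM. Only 3 genes of each position list passed the filter. The part of tumor position in the transporter values was not tested.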

How the data were processed

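RNA-seq was available for 6 AOM/DSS-induced tumors. Poly(A) RNA was made into paired-end Illumina libraries. The authors deposited TPM per gene with 2 decimals, scaled to 999964 to 1000067 per tumor, with a separate column for each tumor. The submitters' processing notes name HISAT2, StringTie and the build mm9 without versions, and the annotation is not given in the sources used here. Because TPM are rescaled values, each depends on all other genes of its tumor, no counts can be recovered, and no counting error can be given.

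Columns were assigned through the tumor codes in the labels. No columns were identical, and none was left over. Gene names are those of the table. Coordinates come from GENCODE M21 (GRCm38), which holds 96.17% of the gene IDs, and promoter windows from RefSeq (GRCm38.p6), since the table has no coordinates of its own. The members and gene lists were chosen with earlier results of these data known.

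Log2(TPM + 1) was fitted with limma 3.58.1 in R 4.3.3 (empirical Bayes with trend, Benjamini-Hochberg adjustment, threshold 0.05) over 15117 genes, those reaching 1 TPM in 3 or more tumors. The procedure was tested on simulated data. Named genes are the 10 members, *Trp53*, the gene with the smallest p of each transport list and a fixed set of partners. *Slc5a12* enters through a fixed ratio. *Slc4a4* and the single markers named were chosen after their values were seen. *Scnn1d* and *Prac1* were not matched by name and are not analysed here. A partner gene and a ratio that the rule names are not reported here. Alternatives were a pseudocount of 0.1, quantile normalization, median-of-ratios rescaling, no filter, a minimum mean of 5 TPM, the mean of 12 epithelial markers as the zero of each tumor, the replicate number as a block, no trend, array quality weights and each tumor left out in turn.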

Additional observations from a re-analysis of the deposited data

How the results depend on the processing

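The 10 transporter genes kept their directions and calls under most alternatives, with these exceptions, whose cause was not tested. The 25 genes called became 7 without the filter, 10 with the replicate block, 323 with array quality weights (whose estimate did not converge, with a weight of 7.29 for *Trp53fl/fl* replicate 1) and 6 to 28 when single tumors were omitted. Array quality weights called 1 of the 10 genes, *Slc5a8*, and 3 of the other transport genes, *Fxyd4*, *Aqp1* and *Wnk1* (limma adjusted p = 0.0446, 0.0496 and 0.0452), where they called 2.14% of all genes. They raised the other transport genes at an unadjusted p under 0.05 from 8 to 20, against 6 to 14 with a tumor left out. The share of all genes at that unadjusted p was not counted with these weights, so the rise to 20 cannot be read as particular to transport genes. The 2 of 10 genes at an unadjusted p under 0.05 became 1 without the filter, 4 with median-of-ratios rescaling, 1 with centring on epithelial markers and 1 to 4 when single tumors were omitted. The share of all genes tested with such a p was 12.5% in the main setting, 11.5% with rescaling, 27.2% with centring and 7.48% to 16.1% with a tumor omitted. The 2 of 10 genes without overlap became 1 at a mean of at least 5 TPM, which removed *Scnn1g*, 4 with median-of-ratios rescaling, 0 with centring and 2 to 6 when single tumors were omitted. All genes tested moved too, with 6.03% above in the main setting, 9.63% with rescaling, 1.96% with centring and 8.09% to 12.3% with a tumor omitted. The shares below were 13.3%, 8.47%, 32.1% and 17% to 24.2%. Of all genes called, 48% were higher in *VP* tumors, 59.1% with median-of-ratios rescaling, 28.6% with centring and 70% with the replicate block.

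Signs changed with centring for *Scnn1a* (-0.018), *Slc12a2* (-0.043), *Kcne3* (-0.066), *Slc26a3* (-0.12), *Slc9a3r1* (-0.13), *Nr3c2* (-0.095) and *Prss8* (-0.017), and with array quality weights for *Kcne3* (-0.23) and *Slc26a3* (-0.024). With a tumor left out, log2 fold changes ran from -0.040 to 0.37 for *Scnn1a*, -0.75 to 0.017 for *Slc9a3*, -0.37 to 0.14 for *Atp12a*, -0.10 to 0.32 for *Kcne3*, -0.35 to 0.43 for *Slc26a3*, -0.031 to 0.17 for *Slc9a3r1*, -0.052 to 0.17 for *Nr3c2* and -0.10 to 1.13 for *Aqp8*. *Trp53* kept a log2 fold change of -1.74 to -2.05 and lost its call under 6 of 15 alternatives, with an adjusted p of 0.104 without the filter, 0.0883 with the replicate block, and 0.0986, 0.0553, 0.0583 and 0.0938 without *Trp53fl/fl* replicates 1 and 3 and *VP* replicates 1 and 2. With single tumors omitted, *Slc9a2* ran from 0.18 to 0.60, *Nedd4l* from 0.15 to 0.46, *Guca2a* from 0.20 to 0.50, *Gucy2c* from 0.17 to 0.53 and *Kcnn4* from 0.18 to 0.56. Over all genes tested, deviations from the genotype means were hardly correlated between tumors of the same number (r of 0.019, -0.052 and 0.018). An r over all genes cannot show whether the numbers pair the tumors for some genes. The labels do not state a pairing, and the replicate block is given only as a setting. TPM give no depth, which limits low genes such as *Scnn1g* most.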

Other observations

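*Slc26a3*, *Aqp8* and *Car4*, a membrane carbonic anhydrase, followed one another over the 6 tumors, and were singled out after their values were seen. *Trp53fl/fl* replicate 2 was lowest for each (4.86, 5.08 and 21.69 TPM) and *VP* replicate 3 next lowest (5.41, 9.72 and 31.98 TPM). *Trp53fl/fl* replicate 2 was at the same time highest for *Slc9a3* (81.21 TPM) and *Atp12a* (38.69 TPM), and also for *Car1* (283.58 TPM), *Clca4a* (79.73 TPM) and *Clca4b* (490.08 TPM). The genes of this second group were also picked after their values were seen. The genes named here thus differed between tumors of 1 genotype in opposite directions. Among all genes tested, *Trp53fl/fl* replicate 2 was highest for 27.1% and lowest for 20.4%, the largest share of any tumor for both.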
